A study of Homo sapiens with 27 samples.

Results

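The genes described here were the 248 of 20268 counted genes whose symbol is ZNF followed by a number and whose coding regions lie only on human chromosome 19. They were followed through poly(A)-ClickSeq (PAC-seq), which primes on the poly(A) tail and so reads the 3′ ends of polyadenylated RNA. The study asked how 3′ end use changes in prostate cancer cells when CPSF1 is reduced. Each of 3 cell lines was infected with lentivirus carrying CTRL sh, a control shRNA, or one of a pair that targets CPSF1, named CPSF1 sh1 and CPSF1 sh2, selected with puromycin and harvested 72 h after seeding. There were 3 libraries in each of the 9 groups, 27 in all. LNCaP is an androgen-responsive line from a lymph node metastasis, LNCaP95 is an androgen-independent line derived from it, and 22Rv1 is a castration-resistant line derived from a xenograft. LNCaP95 was kept in phenol-red-free medium, and puromycin was used at 2 µg/ml for LNCaP and 22Rv1 and at 1 µg/ml for what by elimination was LNCaP95, so that medium, puromycin dose and the line itself cannot be told apart. The labels do not say whether libraries of a group came from separate infections, and the p-values then measure only the spread between these libraries.

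Most chromosome 19 ZNF genes encode KRAB zinc finger proteins, which bind DNA through a row of C2H2 fingers, many of them within transposable elements, and recruit the corepressor TRIM28 to keep the bound DNA silent. The family grew by tandem duplication, so related genes stand in runs on the chromosome. CPSF1 is the largest subunit of CPSF, the cleavage and polyadenylation specificity complex that recognises the AATAAA signal and cuts the transcript. A 3′ end can lie at the end of the 3′ UTR, earlier in an intron, or past the annotated end of the gene.

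With a gap of at most 250 kb between neighbours, 236 of the 248 genes fell into 14 runs and 12 stood alone. There were 132 on the plus and 116 on the minus strand. The longest run by span, from ZNF737 to ZNF254, held 28 genes over 3594.6 kb (GRCh37, chr19:20718331-24312954). The run with the most genes, 43, went from ZNF264 to ZNF446 (chr19:57702868-58992897), and 37 genes stood between ZNF577 and ZNF331 (chr19:52358763-54083823).

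Reads were counted by the authors in 4 regions per gene, namely the 3′ UTR with 300 bp added, the introns, the coding sequence, and the 10 kb downstream of the gene without exons of the same strand. The close packing of the genes touched these regions. In 95 of the 248 genes the 10 kb region overlapped a counted region of another gene on the same strand, which was an intron in 83 and another 10 kb region in 32. In the other 153 it overlapped none. The introns of 36 genes were listed at 0 reads in all 27 libraries. In each of these 36 genes at least 90.5% of the intron bases were also intron of another gene on the same strand, whereas none of the 187 genes with unshared introns was at 0 throughout. ZNF587, ZNF700 and ZNF443 were among the 36. How a read in bases shared by genes was counted is not given in the sources used here, nor is the handling of reads that match several near-identical genes, so levels of closely related neighbours are uncertain. A listed 0 in the introns of these 36 genes is no evidence on their use.

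Within the last 30 bases of their annotated 3′ UTRs, AATAAA was present in 91 of 243 ends (37.4%), in 50.2% of the 19540 ends of all genes, in 45.3% of the ends of ZNF genes on other chromosomes and in 50.6% of the other chromosome 19 genes. ATTAAA was present in 14.4% of the 243 and 14.0% of all. Only the given strand was searched. An end that holds both was counted in both shares, and only its AATAAA is marked in the sequences below. These shares describe the annotation and were not tested. The last 30 annotated bases of the genes on which the results turn are given 5′ to 3′ (GRCh37), with the signal in capitals. The first 4 are genes whose downstream or intron reads rose after knockdown, the last 3 are genes with at most 2 3′ UTR reads in any LNCaP95 library.
ZNF181, chr19:35233748-35233777, plus strand: atctAATAAAatcattttgtatatcacaaa
ZNF420, chr19:37621184-37621213, plus strand: gtttctctttaAATAAAattaaacatctta
ZNF91, chr19:23521551-23521580, minus strand: cccaaccaaatctatacatttcaatgaagg
ZNF546, chr19:40523485-40523514, plus strand: ggcagctttgaatgcagtccaacagaaatt
ZNF430, chr19:21242827-21242856, plus strand: tgtatAATAAAatccagtgtattttaaaaa
ZNF681, chr19:23921997-23922026, minus strand: aatAATAAAtttttttattttaaagatgaa
ZNF726, chr19:24127932-24127961, plus strand: tgaatctagctagcaatttatcaattttgt
ZNF181, ZNF420, ZNF430 and ZNF681 end with AATAAA, while neither hexamer stands in the window of ZNF91, ZNF546 and ZNF726. The ZNF91 end lies 34058 bases before the start of its 10 kb region, a distance that comes from the annotation. In 19 genes this distance was over 1000 bases. Introns were taken as the gene minus coding sequence and 3′ UTR, so sequence past such an end can count as intron.

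The libraries held 3452413 to 12425417 reads in the 4 tables together, and the 10 kb table held 170330 to 728430. At a mean above 2 CPM (counts scaled to the library size of the table) over the libraries of a line, 170 to 178 of the 243 listed 3′ UTRs, 179 to 187 intron sets, 74 to 90 coding regions and 215 to 223 downstream regions passed and were tested. All 9 luminal prostate markers were above 2 CPM in each line, and at most 1 of 4 basal and 2 of 5 fibroblast markers were. The libraries measure pooled cells, in which fewer cells using a gene and less RNA per cell cannot be told apart. CPSF1 itself fell in the 3′ UTR table in each line. In LNCaP the controls stood at 136 to 180 CPM and the knockdown libraries at 53.5 to 97.2, in LNCaP95 at 66.7 to 110 and 34.2 to 59.3, and in 22Rv1 at 135 to 199 and 85.3 to 116, with no overlap. The log2 fold changes were -1.19 (SE 0.168), -1.05 (SE 0.182) and -0.73 (SE 0.143), with edgeR adjusted p = 8.3e-05, 3.0e-04 and 0.0164.

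In control cells the chromosome 19 ZNF genes had a larger part of their reads past the gene than the sum of all genes. Of their reads in the 4 regions of LNCaP controls, 38.2% were in 3′ UTRs, 44% in introns and 14.8% downstream, where all genes had 53.9%, 26.9% and 4.89%. The intron part was 33.9% without ZNF98 and 35% in ZNF genes on other chromosomes. The median intron share per gene was 28%, 23.2% and 25% in LNCaP, LNCaP95 and 22Rv1, against 23.5%, 22.8% and 21% for all genes and 27.3%, 28.2% and 24.2% for ZNF genes elsewhere. The median gene with at least 30 reads had 11.4%, 10.2% and 13.8% of its reads downstream in LNCaP, LNCaP95 and 22Rv1, against 1.83%, 1.66% and 2.08% for all genes and 3.82%, 3.24% and 3.49% for ZNF genes elsewhere. Many genes had the same leading region in every line. Of the 209 genes with at least 30 control reads in every line, 65 had over 50% of them in the 3′ UTR in all 3 lines, 42 in the introns and 25 downstream. The shares and counts of this paragraph did not leave out the 95 genes whose 10 kb region overlaps another counted region. Nor did they leave out the 36 genes with introns listed at 0, whose other shares are larger for it. Shares of the free regions alone were not computed. ZNF66 had 90.8%, 82% and 91.8% of its control reads downstream in LNCaP, LNCaP95 and 22Rv1, in a region that overlaps no other. ZNF221 had 99.8%, 98.7% and 99.2%, but 9925 bases of its 10 kb region are intron of ZNF155. ZNF83 had 78.6%, 76.4% and 81.2% in its introns and ZNF787 had 91.8%, 92.7% and 84.4% in its 3′ UTR.

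**Figure D1:**
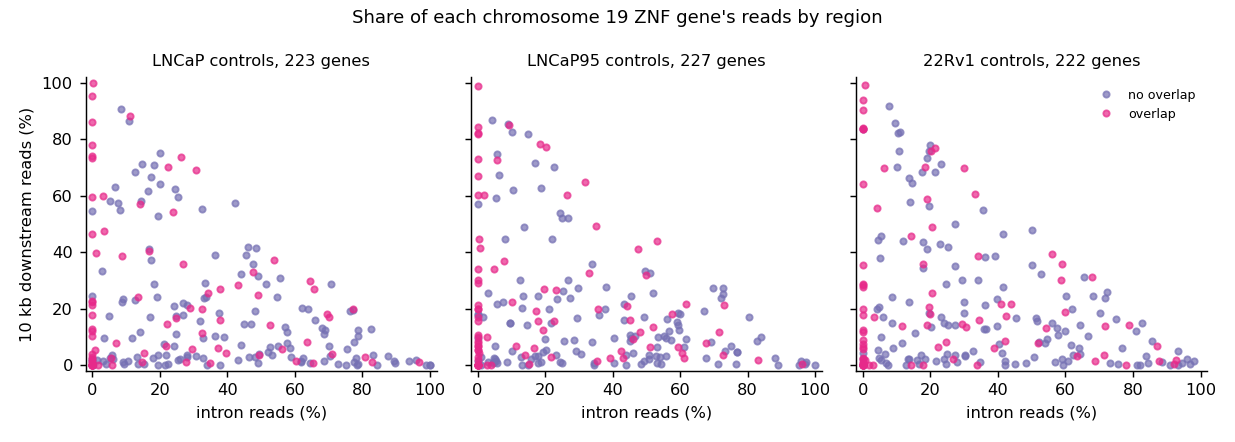
Each point is a chromosome 19 ZNF gene with at least 30 reads in the control libraries of a line, with the percentage of its reads in introns on the x axis and in the 10 kb downstream region on the y axis, coloured by whether the 10 kb region overlaps another counted region. Points spread over the whole triangle in each line, with 34, 29 and 33 genes above 50% downstream, and the genes at 0% intron include those whose introns are shared with another gene.

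Single genes carried a large part of these sums. ZNF98 held 34.8%, 23.4% and 34.6% of all intron reads of the chromosome 19 ZNF genes in LNCaP, LNCaP95 and 22Rv1 controls, and its introns contain 3 processed pseudogenes on the same strand, BNIP3P32, BNIP3P33 and ENSG00000270317 (GENCODE v44 on GRCh37). ZNF90 held 15.2%, 7.23% and 16.6% of the 3′ UTR reads, and the processed pseudogene ENSG00000224864 lies in its counted 3′ UTR. The ZNF677 downstream region, the largest contributor to the downstream reads of LNCaP and LNCaP95 controls, contains NDUFV2P1. Same-strand processed pseudogenes were annotated in 8 of 243 3′ UTRs, 10 of 248 intron sets and 13 of 248 downstream regions, and their part in these values was not tested.

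The lines differed most in the run from ZNF737 to ZNF254, where LNCaP95 stood far below the others. Summed over the 4 regions, the 28 genes had 1434 ± 114 RPM (reads scaled to the total of the 4 tables, SD, n = 3) in LNCaP controls, 620 ± 14.5 in LNCaP95 and 1489 ± 24.1 in 22Rv1. Without ZNF98 the values were 675 ± 44, 256 ± 14.2 and 806 ± 59.6. In both sums each LNCaP95 control library stood below every control library of the other lines. The 37 genes from ZNF577 to ZNF331 were ordered differently, with 901 ± 42.2, 1101 ± 25.4 and 707 ± 51.6, and the 43 genes from ZNF264 to ZNF446 had 501 ± 19.4, 429 ± 26 and 323 ± 14.8.

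In the 3′ UTR table, 37 of 177 tested chromosome 19 ZNF genes were lower and 17 higher in LNCaP95 than in LNCaP controls (edgeR, adjusted p under 0.05), while 39.3% of all genes were called. Their median log2 difference was -0.26, against -0.00 for all genes. The other genes of chromosome 19 had a median of -0.32, so a negative median was seen there too. Scaled to the reads of all 4 tables, with the composition (TMM) factors of the 3′ UTR table, 29 were lower and 21 higher (38.1% of all genes called). The same factors apply to every call and median given on the scale of all 4 tables. Of the 37, 12 came from the 16 tested genes of the ZNF737 to ZNF254 run, whose median was -1.77, and none of its genes was higher. Among intron sets 40 of 190 were lower and 10 higher (24.2% of all genes called), with 18 of 26 lower in the same run. Downstream, 15 of 221 were lower and 7 higher (5.77% of all genes called), with 8 of 25 lower in the run, and 16 lower and 4 higher when scaled to all 4 tables (5.73%).

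ZNF430 showed the contrast most plainly. Its 3′ UTR had 76, 100 and 64 reads in LNCaP controls, 0, 0 and 1 in LNCaP95 and 43, 105 and 128 in 22Rv1. The pooled level in LNCaP was 301 times that in LNCaP95, with a 95% counting interval of 53.4 to 11921. The introns of ZNF430 were lower as well (log2 difference -3.71, SE 0.45, edgeR adjusted p = 6.4e-08), and so was its downstream region, with 14, 34 and 23 reads in LNCaP and 0, 2 and 1 in LNCaP95 (ratio 25.6, 95% counting interval 8.41 to 127).
ZNF681 had 22, 32 and 22 reads in LNCaP controls and none in LNCaP95, a level at least 31.7-fold higher in LNCaP when 3 reads are allowed over the LNCaP95 libraries, and 34, 141 and 144 in 22Rv1. ZNF726 had 67, 76 and 49 reads in LNCaP, 2, 0 and 0 in LNCaP95 (ratio 120, 95% counting interval 32.8 to 1000) and 41, 76 and 134 in 22Rv1. These intervals and floors cover counting error only. The 3 genes had at most 2 3′ UTR reads in every LNCaP95 library, knockdown included. Their neighbour ZNF714 was low but present in LNCaP95, with 12, 10 and 15 reads against 302, 273 and 319 in LNCaP (log2 difference -4.95, SE 0.314, edgeR adjusted p = 4.4e-09). Other genes of the run did not follow. ZNF431 stood at 9.64 to 12.2 CPM in LNCaP controls and 8.62 to 13.3 in LNCaP95 (log2 difference -0.04, SE 0.33), and ZNF91 was lower but well expressed, with 214, 134 and 114 3′ UTR reads in LNCaP95 against 230, 289 and 227 in LNCaP (log2 difference -1.06, SE 0.199, edgeR adjusted p = 4.9e-04). ZNF431 was chosen after its values were seen.

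**Figure D2:**
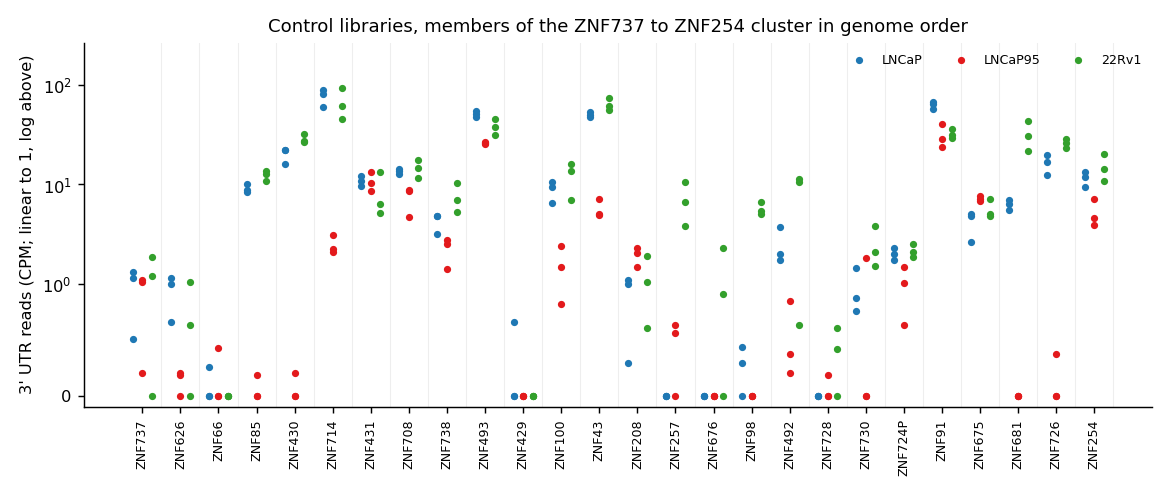
Control 3′ UTR reads in CPM (linear to 1, log above) of the genes from ZNF737 to ZNF254 in genome order, with 3 points per line, 1 for each library. LNCaP95 points of ZNF85, ZNF430, ZNF681 and ZNF726 lie below 1 CPM where LNCaP and 22Rv1 lie above 5, while the ZNF431 points of the 3 lines overlap.

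In the same run 22Rv1 stood above LNCaP in other genes. ZNF257 had 0 reads in each LNCaP control 3′ UTR and 6, 22 and 50 in 22Rv1, at least 32.2-fold higher, and its downstream region had 0, 0 and 0 against 5, 8 and 15 (at least 10.1-fold higher). ZNF676 had 2, 3 and 5 downstream reads in LNCaP and 30, 52 and 68 in 22Rv1 (log2 difference 4.04, SE 0.543, edgeR adjusted p = 1.3e-11). The introns of ZNF729 had 0, 1 and 0 reads in LNCaP controls and 15, 11 and 25 in 22Rv1 (ratio 68.9, 95% counting interval 11.8 to 2772). Over all chromosome 19 ZNF genes, 49 of 177 3′ UTRs were lower and 13 higher in 22Rv1 than in LNCaP (47.2% of all genes called), 31 of 190 intron sets were lower and 16 higher (31% of all genes), and 18 of 221 downstream regions were called in each direction (10.6% of all genes). Scaled to all 4 tables, 10 downstream regions were lower and 22 higher (11.1%), so the equal split depends on the scale. Both line contrasts share the LNCaP controls.

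Outside the run, ZNF69 (chromosome 19 run from ZNF653 to ZNF791) was higher in 22Rv1, with 118, 188 and 253 intron reads against 11, 20 and 17 in LNCaP (log2 difference 4.0, SE 0.244, edgeR adjusted p = 2.1e-15). ZNF415 and ZNF528, both between ZNF577 and ZNF331, were lower in 22Rv1. ZNF415 had 1, 5 and 5 3′ UTR reads there against 38, 34 and 58 in LNCaP, and ZNF528 had 8, 12 and 16 intron reads against 84, 70 and 131. ZNF813, of the same run, was higher in LNCaP95, with 476, 325 and 507 3′ UTR reads against 68, 88 and 81 (log2 difference 2.11, SE 0.223, edgeR adjusted p = 1.3e-06).

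After CPSF1 knockdown the chromosome 19 ZNF genes had more reads downstream in each line. In RPM, their downstream regions went from 734 ± 22.3 (SD, n = 3) to 962 ± 52.6 (n = 6) in LNCaP, from 674 ± 14.2 to 1151 ± 121 in LNCaP95 and from 740 ± 24 to 1012 ± 47.9 in 22Rv1. As a share of the genes' own reads, the downstream part in LNCaP was 14.8% ± 0.368 in controls and 18.3% ± 0.802 after knockdown. In LNCaP95 it was 16.4% ± 0.308 and 22.2% ± 1.72, and in 22Rv1 16.1% ± 0.294 and 20% ± 0.534. The ranges of control and knockdown libraries did not overlap in any line, also without ZNF98 (left out after the data were seen), when the shares were 17.4% and 22.8%, 17.9% and 25.9%, and 18.7% and 22.7%. Over all genes the share went from 4.89% to 6.28%, 3.62% to 6.01% and 4.66% to 5.86%. These shares were not tested. The intron share was apart between the arms in LNCaP95, at 37.6% ± 1 and 42.1% ± 1.82, and overlapped in LNCaP and 22Rv1. Without ZNF98 it overlapped in LNCaP95 (31.6% ± 0.791 and 32.3% ± 3.26) and was lower after knockdown in LNCaP (33.9% ± 0.297 and 29.9% ± 1.57).

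**Figure D3:**
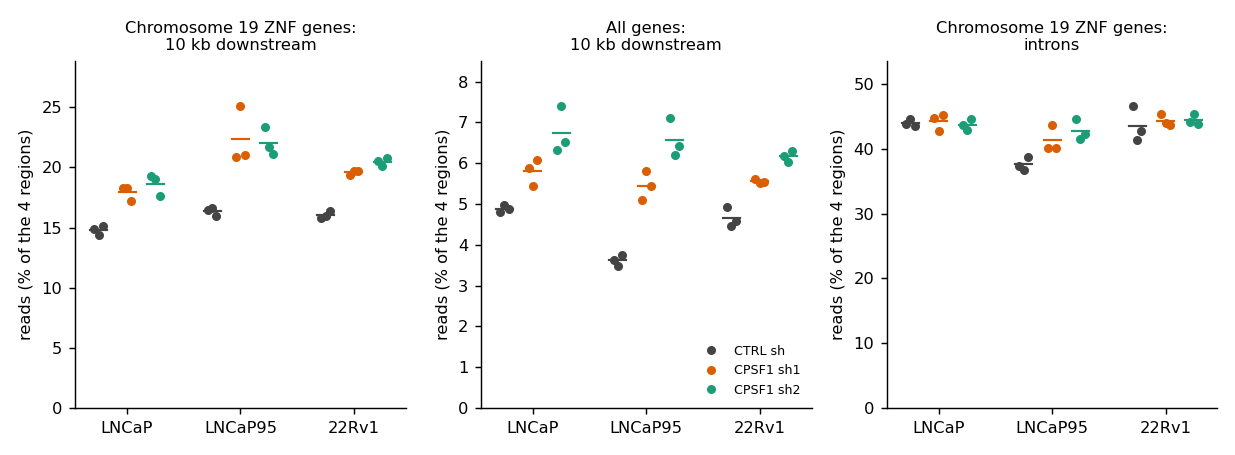
Percentage of reads in a region per library, 3 libraries per shRNA and line, with the bar at the mean: the 10 kb regions of chromosome 19 ZNF genes (left) and of all genes (middle), and the introns of chromosome 19 ZNF genes (right). In the left and middle panels every CPSF1 sh library lies above the CTRL sh libraries of its line.

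Gene by gene, the median downstream change of these genes lay below that of all genes, as did that of the other genes of chromosome 19. When each table is scaled to itself, so that a change is relative to the other downstream regions, 16 of 215 downstream regions in LNCaP were called higher and 16 lower (14.7% of all genes were called, 9.52% higher and 5.2% lower). In LNCaP95 18 of 222 were higher and 33 lower (27.7% of all genes, 17.6% higher and 10.1% lower), and in 22Rv1 10 of 223 were higher and 8 lower (9.99% of all genes, 7.26% higher and 2.73% lower). The medians were -0.05, -0.21 and -0.00, against 0.13, 0.22 and 0.19 for all genes. The other chromosome 19 genes had lower medians still, at -0.24, -0.43 and -0.06. When libraries are scaled to the reads of all 4 tables, the median of all downstream regions moves to 0.62, 1.08 and 0.74 and that of the chromosome 19 ZNF genes to 0.44, 0.67 and 0.58. The calls then become 30 higher and 2 lower, 66 and 4, and 32 and 0, where 18.5%, 36.9% and 19.7% of all genes are called. A lower call on the first scale is thus a smaller rise than that of other regions, or a fall.

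Overlapping and free regions had different values. Among genes whose 10 kb region overlaps another counted region, 1 of 78 was higher and 9 lower in LNCaP, in LNCaP95 0 of 79 and 20, and in 22Rv1 2 of 80 and 4, with medians of -0.40, -0.57 and -0.12. Among genes with no overlap, 15 were higher and 7 lower of 137, 18 and 13 of 143, and 8 and 4 of 143, with medians of 0.11, 0.10 and 0.08. This split was made after the values were seen and was not tested. With libraries scaled to all 4 tables the medians were 0.07, 0.28 and 0.44 with overlap and 0.60, 0.98 and 0.62 without.

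**Figure D4:**
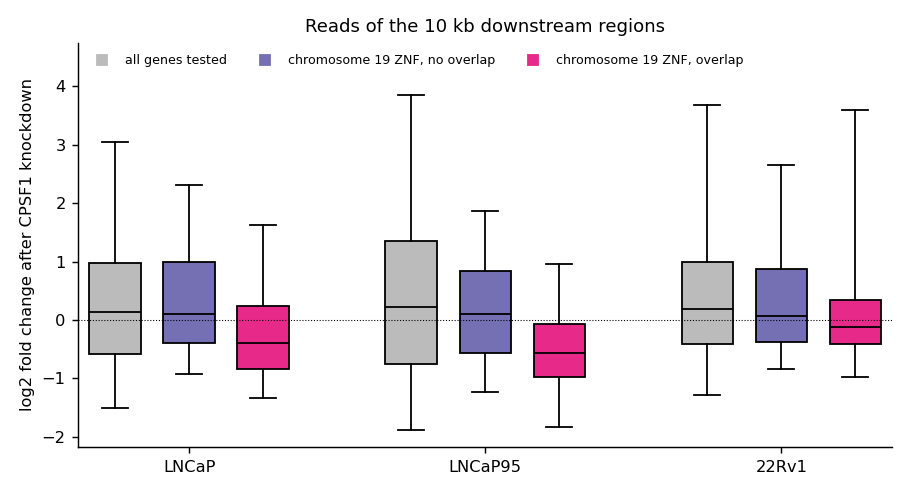
Log2 fold change after CPSF1 knockdown in the 10 kb table (own scaling), for all genes tested and for chromosome 19 ZNF genes without and with an overlapping 10 kb region, with boxes at the quartiles, lines at the medians and whiskers at the 5th and 95th percentiles. The boxes of overlapping genes sit lowest in LNCaP and LNCaP95, at medians of -0.40 and -0.57.

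ZNF181, ZNF91 and ZNF420 rose downstream in all 3 lines, and their 10 kb regions overlap no other region. ZNF91 is known as a repressor of SVA retrotransposons and ZNF420 as a negative regulator of p53. The ZNF181 region (chr19:35234077-35244076, plus strand) had 3, 0 and 2 reads in LNCaP controls and 4 to 35 with a median of 19.5 after knockdown, 3, 2 and 5 against 32 to 75 (median 39) in LNCaP95, and 0, 2 and 1 against 8 to 22 (median 15) in 22Rv1. Every knockdown library was above every control of its line. The log2 fold changes were 3.06 (SE 0.629), 2.96 (SE 0.477) and 2.50 (SE 0.785), with edgeR adjusted p = 7.1e-05, 4.5e-07 and 0.0243. A fitted fold change of such low counts depends on the prior count. The 22Rv1 call rests on 3 control reads against 91 (ratio 6.06, 95% counting interval 2.01 to 29.9) and was lost with DESeq2 (adjusted p = 0.0621) and without control replicate 1 (0.0861), control replicate 3 (0.159) or CPSF1 sh2 replicate 2 (0.0531), and with CPSF1 sh1 as the only knockdown (log2 fold change 2.35, adjusted p = 0.153). The 3′ UTR of ZNF181 was not called in any line (log2 fold changes -0.55, -0.41 and -0.29).

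ZNF91 (10 kb region chr19:23477494-23487493, minus strand) had 0, 4 and 3 reads in LNCaP controls and 8 to 20 (median 16.5) after knockdown, 5, 2 and 0 against 16 to 28 (median 25) in LNCaP95, and 6, 1 and 4 against 19 to 129 (median 56) in 22Rv1. The groups did not overlap, with log2 fold changes of 2.28 (SE 0.622), 2.44 (SE 0.595) and 2.66 (SE 0.453) and edgeR adjusted p = 0.00434, 8.1e-04 and 2.7e-06. Without LNCaP control replicate 1 the first was 1.75 (adjusted p = 0.0637). Its introns rose too in LNCaP95 (1.31, SE 0.271, edgeR adjusted p = 6.5e-04) and 22Rv1 (0.76, SE 0.135, adjusted p = 9.4e-04), and not its 3′ UTR (0.09, 0.16 and 0.21, none called). The ZNF91 introns as counted can include sequence past the 3′ UTR end, and where in them the reads lie was not examined.

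ZNF420 (chr19:37621516-37631515, plus strand) had 0, 4 and 1 reads in LNCaP controls and 3 to 31 (median 6.5) after knockdown, so that the groups overlapped there. It had 5, 6 and 0 against 9 to 41 (median 25) in LNCaP95 and 0, 0 and 2 against 5 to 29 (median 10.5) in 22Rv1, the last a ratio of 8.7 (95% counting interval 2.34 to 72.9). By CPM the groups overlapped in LNCaP95 too and were apart in 22Rv1. The log2 fold changes were 2.31 (SE 0.737), 1.84 (SE 0.553) and 2.97 (SE 0.885), with edgeR adjusted p = 0.0188, 0.00731 and 0.016. These calls were the least firm of the 3 genes. With DESeq2 the LNCaP and 22Rv1 calls were lost (adjusted p = 0.0642 and 0.0656). With CPSF1 sh1 as the only knockdown none of the 3 lines was called, at 1.29 (adjusted p = 0.473), 1.44 (0.16) and 2.03 (0.403). In LNCaP the call was also lost without control replicate 1 (0.139), control replicate 3 (0.0899), CPSF1 sh2 replicate 1 (0.0629) or CPSF1 sh2 replicate 3 (0.0981), in LNCaP95 without control replicate 3 (0.0944), and in 22Rv1 without control replicate 1 (0.0605), control replicate 2 (0.106), CPSF1 sh2 replicate 2 (0.0524) or CPSF1 sh2 replicate 3 (0.0585). In all these settings ZNF420 kept its direction.

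ZNF274, which recruits the histone methyltransferase SETDB1 to the 3′ ends of zinc finger genes, rose downstream in LNCaP and LNCaP95. Its region stood at 3.79, 9.63 and 7.37 CPM in LNCaP controls and 17.7 to 57.8 (median 36.7) after knockdown, and at 12.3, 11 and 22 against 43.6 to 80.2 (median 54.3) in LNCaP95, without overlap in either line. The log2 fold changes were 2.32 (SE 0.657), 1.86 (SE 0.477) and, not called, 2.05 in 22Rv1 (SE 0.844, 3 control reads, ratio 4.6, 95% counting interval 1.51 to 22.8), with edgeR adjusted p = 0.00655, 0.00146 and 0.107. With CPSF1 sh1 alone the ZNF274 value in LNCaP was 1.82 (adjusted p = 0.126), and with CPSF1 sh2 alone that in 22Rv1 was 2.61 (0.0267). The introns of ZNF274, in contrast, were called lower in 2 lines, LNCaP95 among them. The processed pseudogene RPS15AP36 lies in the downstream region of ZNF274. ZNF30 rose in LNCaP (2.32, SE 0.545, edgeR adjusted p = 6.6e-04) and LNCaP95 (1.69, SE 0.351, adjusted p = 7.5e-05), and ZNF441 in the same lines (1.55, SE 0.257, edgeR adjusted p = 5.3e-07, and 0.80, SE 0.251, adjusted p = 0.0109). The levels of ZNF441 were 72, 116 and 107 CPM in LNCaP controls against 217 to 337 (median 286) after knockdown.

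Relative to each gene's own 3′ UTR, the downstream reads rose in 10 of 152 chromosome 19 ZNF genes and fell in 0 in LNCaP (10.3% of all genes called, and 25 of the 152 at an unadjusted p under 0.05), rose in 14 and fell in 13 of 164 in LNCaP95 (28%), and rose in 3 and fell in 1 of 155 in 22Rv1 (7.45%). ZNF91 was called in all 3 lines, with log2 changes of the ratio of 2.23 (SE 0.632), 2.39 (SE 0.642) and 2.36 (SE 0.576), and edgeR adjusted p = 0.019, 0.00507 and 0.00924. The ZNF91 call was lost without LNCaP control replicate 1 (adjusted p = 0.132) and without 22Rv1 control replicates 2 (0.0939) or 3 (0.0811). ZNF181 and ZNF274 were called in LNCaP and LNCaP95 (3.60, SE 0.819, and 3.34, SE 0.589, for ZNF181, and 2.40, SE 0.71, and 2.46, SE 0.521, for ZNF274). The LNCaP call of ZNF181 was lost without control replicate 2 (adjusted p = 0.0597), and that of ZNF274 without control replicate 1 (0.0933), 2 (0.0889) or 3 (0.0822) or CPSF1 sh2 replicate 1 (0.0567). Scaled to all 4 tables, the ratio calls become 18 higher and 0 lower, 53 and 1, and 21 and 0 (16%, 48.2% and 25.4% of all genes called), with medians of all genes at 0.75, 1.51 and 0.97.

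ZNF586, ZNF837, ZNF765, ZNF345 and ZNF114 were called lower downstream in LNCaP and LNCaP95 on the table's own scale. The ZNF586 region, which is covered by introns of ZNF587B and CTD-2583A14.10, stood at 182, 151 and 136 CPM in LNCaP controls and 43.4 to 92.1 (median 57) after knockdown, which gave a log2 change of -1.35 (SE 0.293, edgeR adjusted p = 2.0e-04). ZNF837, whose region overlaps ZNF497, stood at 314, 279 and 232 CPM and 95 to 138 (median 121), with -1.18 (SE 0.236, edgeR adjusted p = 4.4e-05). Both remained called in LNCaP when libraries were scaled to all 4 tables, and neither did in LNCaP95, where the values were -0.06 for ZNF586 and -0.29 for ZNF837 (adjusted p = 0.925 and 0.499). The LNCaP95 call of ZNF586 (-0.96, SE 0.35) was also lost without control replicate 1 (0.116), CPSF1 sh1 replicate 2 (0.0516), CPSF1 sh2 replicate 2 (0.0744) or CPSF1 sh2 replicate 3 (0.0553), and with either shRNA alone (0.146 and 0.0757). ZNF765 (-0.89, SE 0.241, and -1.09, SE 0.234) was called under the first scale, and under the second stood at -0.39 and -0.18 (adjusted p = 0.332 and 0.596). ZNF114 (-1.23, SE 0.428, and -1.99, SE 0.502) was not called in either line on the second scale (adjusted p = 0.282 and 0.0952). Its LNCaP call was also lost without any of the controls (0.0774 to 0.139) or CPSF1 sh1 replicate 2 (0.0713) and with either shRNA alone (0.0731 and 0.0828), and its LNCaP95 call with CPSF1 sh1 alone (0.0529). ZNF221, whose region is mostly intron of ZNF155, was lower in LNCaP and 22Rv1, with 1144, 1082 and 1091 CPM in LNCaP controls and 413 to 666 (median 613) after knockdown (-0.91, SE 0.181, edgeR adjusted p = 3.7e-05). In 22Rv1 its value was -0.68 (SE 0.178, edgeR adjusted p = 0.00473), and the call was lost on the second scale (0.619), without control replicate 2 (0.0692) and with CPSF1 sh1 alone (-0.43, 0.291). The ZNF221 call in LNCaP was lost on the second scale as well, where the 2 lower calls were ZNF586 and ZNF837.

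ZNF541 is a germ cell protein gene outside the runs, and its downstream region holds intron of NAPA. Among the chromosome 19 ZNF genes it gave the smallest adjusted p of the downstream regions after knockdown. In LNCaP95 it fell from 184, 173 and 343 CPM in controls to 11 to 36 (median 26.8) after knockdown (log2 fold change -3.23, SE 0.312, edgeR adjusted p = 7.2e-15), with no overlap. In LNCaP the values were 45.5, 70.6 and 70.1 against 17.7 to 63.7 (-0.62, not called) and in 22Rv1 55.2, 30.2 and 68.4 against 34.4 to 85.6 (-0.20, not called). The change in LNCaP95 differed from that in LNCaP by -2.56 (SE 0.506, edgeR adjusted p = 4.0e-04).
ZNF812 was called in opposite directions on the table's own scale. It rose in LNCaP, from 87.1, 67.4 and 81.1 CPM to 208 to 357 (median 270), a log2 change of 1.87 (SE 0.267, edgeR adjusted p = 5.1e-09), and fell in 22Rv1, from 151, 172 and 105 to 54.9 to 108 (median 88.5), with -0.81 (SE 0.265, adjusted p = 0.0327), where the groups overlapped. Scaled to all 4 tables, 0 of the 223 tested downstream regions were called lower in 22Rv1, so the fall of ZNF812 was not called there. On the table's own scale the changes differed by -2.64 (SE 0.409, edgeR adjusted p = 7.4e-06). Its downstream region contains the processed pseudogene RPS4XP22, whose part was not tested. ZNF85 was also called in opposite directions downstream, higher in LNCaP and 22Rv1 and lower in LNCaP95. Downstream, a change that differed between lines was called for 5 of 224 genes between LNCaP95 and LNCaP (2.48% of all genes), 1 between 22Rv1 and LNCaP (1%) and 9 between 22Rv1 and LNCaP95 (4.15%). Among 3′ UTRs there were 8, 6 and 6 of 181 (9.58%, 5.11% and 10.7% of all genes), and among intron sets 5, 4 and 15 of 189 (8.1%, 3.77% and 9.1%).

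**Figure D5:**
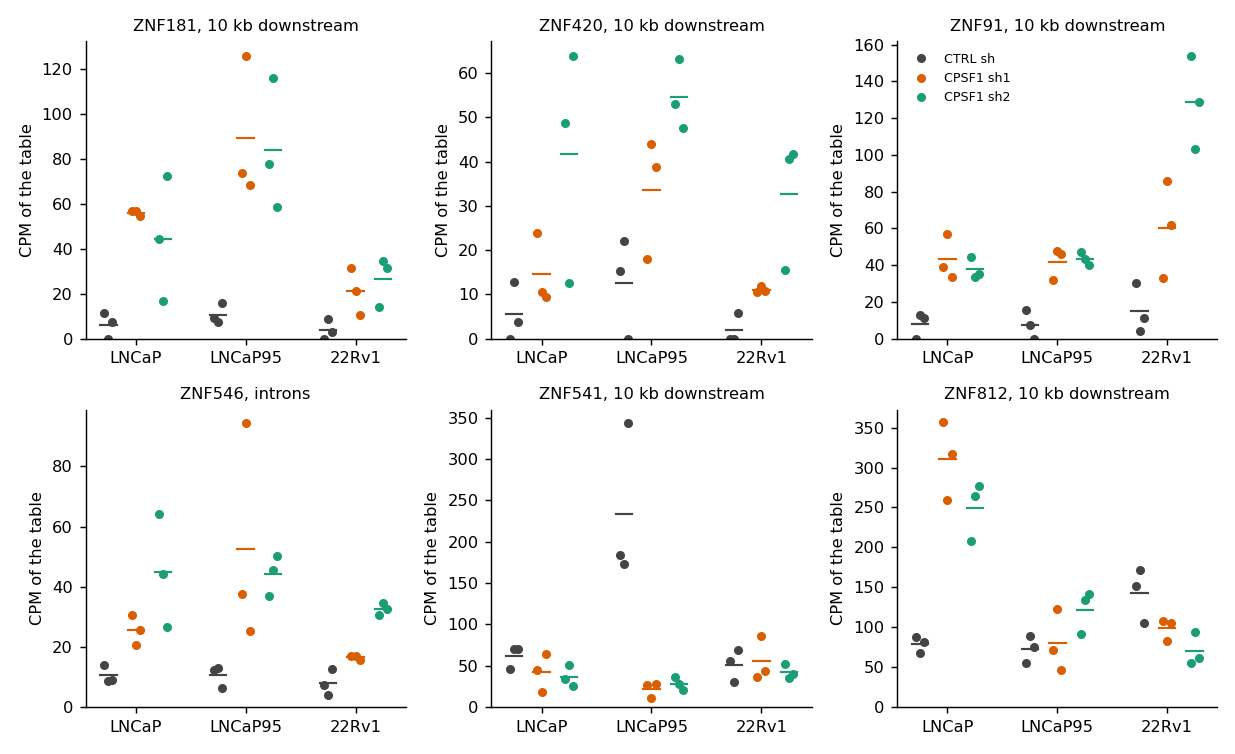
CPM of the table in each library, 3 per shRNA and line, with the bar at the mean, for the downstream regions of ZNF181, ZNF420, ZNF91, ZNF541 and ZNF812 and the introns of ZNF546. ZNF181 and ZNF91 lie higher in every knockdown library than in the controls of the line, ZNF541 is high only in the LNCaP95 controls, and ZNF812 is higher after knockdown in LNCaP and lower at the median in 22Rv1.

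Intron reads rose in 10 and fell in 7 of 179 genes in LNCaP (14.3% of all genes called), rose in 18 and fell in 7 of 182 in LNCaP95 (23.8%), and rose in 2 and fell in 2 of 187 in 22Rv1 (4.37%). Scaled to all 4 tables the LNCaP calls became 6 higher and 24 lower (20.4% of all genes), where the median of all genes stood at -0.26 and that of these genes at -0.36, and the 22Rv1 calls became 4 and 0 (3.9%), with medians of 0.20 and 0.23. ZNF546 rose in all 3 lines. Its introns stood at 14, 8.58 and 9.1 CPM in LNCaP controls and 20.6 to 64.2 (median 28.5) after knockdown, at 12.4, 12.8 and 6.33 against 25.3 to 94.4 (median 41.7) in LNCaP95, and at 7.37, 4.09 and 12.6 against 15.6 to 34.6 (median 23.8) in 22Rv1, with no overlap. The log2 fold changes were 1.80 (SE 0.319), 2.20 (SE 0.336) and 1.49 (SE 0.355), with edgeR adjusted p = 1.4e-04, 1.6e-05 and 0.0136. Without 22Rv1 control replicate 2 the last was 1.21 (adjusted p = 0.0971), and with CPSF1 sh1 as the only knockdown 0.93 (0.314). Its 3′ UTR fell in LNCaP95 (-1.04, SE 0.273, edgeR adjusted p = 0.00752), and the ratio of intron to 3′ UTR reads of ZNF546 rose in LNCaP (2.02, SE 0.449, adjusted p = 0.00922) and LNCaP95 (3.18, SE 0.509, adjusted p = 1.6e-04), the first lost without control replicate 2 (0.0857). Over all chromosome 19 ZNF genes this ratio rose in 2 and fell in 0 of 131 in LNCaP (3.69% of all genes called), rose in 10 and fell in 4 of 138 in LNCaP95 (14.1%), and was called in none of 133 in 22Rv1 (0.422%), where 7 had an unadjusted p under 0.05.

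ZNF211 introns had 0 reads in each LNCaP95 control and 8 to 21 (median 12) after knockdown, at least 14.3-fold higher when 3 reads are allowed over the controls. In LNCaP they had 1, 1 and 1 against 2 to 9 (median 4.5), with a ratio of 6.35 (95% counting interval 1.98 to 32.5), a call that was lost without any of the LNCaP controls (adjusted p = 0.0844 to 0.113). ZNF233 introns rose in LNCaP from 3.49, 1.91 and 3.21 CPM to 9.26 to 18.6 (median 14.1), and in LNCaP95 from 12.4, 4.8 and 1.36 to 37.9 to 64.3 (median 41.3), with log2 fold changes of 2.32 (SE 0.416, edgeR adjusted p = 1.6e-04) and 2.85 (SE 0.348, adjusted p = 5.1e-07). ZNF709 rose by about the same amount in both of these lines (1.05, SE 0.256, and 1.03, SE 0.278, edgeR adjusted p = 0.0047 and 0.00693), though its groups overlapped in LNCaP95 and CPSF1 sh1 alone gave 0.83 there (adjusted p = 0.129). ZNF14 introns fell, from 75, 73.9 and 78.1 CPM to 41.3 to 59.6 (median 49.7) in LNCaP (-0.54, SE 0.151, edgeR adjusted p = 0.0128), and by 0.69 on the log2 scale in LNCaP95 (log2 fold change -0.69, SE 0.183, adjusted p = 0.00675). The ZNF14 call in LNCaP was lost without control replicate 3 (adjusted p = 0.0683) and with CPSF1 sh2 alone (0.169).

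ZNF345 moved in opposite directions in its introns and downstream. Its introns stood at 35.5, 32.4 and 33.7 CPM in LNCaP controls and 46.3 to 88.6 (median 76.3) after knockdown (1.16, SE 0.181, edgeR adjusted p = 2.6e-05), and at 24.4, 27.7 and 15.4 against 50.1 to 98.4 (median 56.9) in LNCaP95 (1.51, SE 0.236, adjusted p = 2.2e-05). Its downstream region, which overlaps ZNF568, stood at 34.1, 80.3 and 59 CPM against 8.26 to 31.9 (median 23.3) in LNCaP and 36.9, 58.9 and 69.2 against 1.89 to 33.9 (median 11.8) in LNCaP95. The downstream log2 fold changes were -1.47 (SE 0.463, edgeR adjusted p = 0.017) and -1.82 (SE 0.49, adjusted p = 0.00253). Scaled to all 4 tables they were -0.99 and -1.02 and not called (adjusted p = 0.148 and 0.122). The LNCaP call was lost without control replicate 2 (adjusted p = 0.219) or control replicate 3 (0.0565), and with CPSF1 sh1 alone the values were -1.06 and -1.28 (0.15 and 0.108). The processed pseudogene RPL31P61 lies in the ZNF345 introns.

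Few of these genes were called at their 3′ UTR ends. Among 3′ UTRs 1 rose and 9 fell of 170 in LNCaP (18.3% of all genes called), 13 rose and 15 fell of 178 in LNCaP95 (30.5%), and none was called of 171 in 22Rv1 (1.47% of all genes called; 12 of the 171 had an unadjusted p under 0.05, and DESeq2 also called none). Scaled to all 4 tables, 6 rose and 23 fell in LNCaP95 (30.1% of all genes called), where the median of all genes was -0.11 and that of these genes -0.22. No gene rose in 2 lines, and ZNF226 and ZNF766 fell in 2. ZNF226 stood at 23.4, 20.5 and 25.6 CPM in LNCaP controls against 13.1 to 18.2 (median 14.7), and at 20, 21 and 20 against 9.66 to 14 (median 11.8) in LNCaP95 (-0.61, SE 0.181, and -0.72, SE 0.185, edgeR adjusted p = 0.0246 and 0.00645). ZNF766 fell by 0.46 and 0.51 on the log2 scale (log2 fold changes -0.46, SE 0.139, and -0.51, SE 0.147, edgeR adjusted p = 0.0275 and 0.0129). The downstream region of ZNF766 was also called lower in LNCaP and LNCaP95 on the own scale of the 10 kb table. The LNCaP calls of ZNF226 and ZNF766 were lost without LNCaP control replicate 1 (adjusted p = 0.0857 and 0.105) or replicate 3 (0.136 and 0.136), that of ZNF226 without CPSF1 sh1 replicate 1 (0.0601), and that of ZNF766 without CPSF1 sh2 replicate 1 (0.0622) or CPSF1 sh1 replicate 2 (0.0554). The LNCaP95 call of ZNF766 was lost without control replicate 3 (0.0826). With CPSF1 sh2 alone the LNCaP calls of ZNF226 (adjusted p = 0.172) and ZNF766 (0.0874) were lost, and with CPSF1 sh1 alone those of ZNF766 in LNCaP (0.0519) and LNCaP95 (0.0937).

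ZNF83 fell in LNCaP, from 70.9, 62.4 and 58.2 CPM to 29.9 to 44.2 (median 36.2), a log2 change of -0.82 (SE 0.147, edgeR adjusted p = 7.9e-04). ZNF880 fell in LNCaP95, from 37.8, 36.2 and 35 CPM to 10 to 19.2 (median 12.9), with -1.31 (SE 0.194, edgeR adjusted p = 7.1e-05). ZNF780B rose there, from 1.5, 3.6 and 1.85 CPM to 5.71 to 10.3 (median 7.67), with 1.79 (SE 0.354, edgeR adjusted p = 9.6e-04). In each of these the groups did not overlap. Of the genes called in the 10 kb table and also tested in the 3′ UTR table, the sign was the same in both for 17 of 25 genes (LNCaP), 21 of 36 (LNCaP95) and 7 of 11 (22Rv1). In the coding regions 0 of 90 were called in LNCaP (7.1% of all genes; 8 at an unadjusted p under 0.05), 2 rose and 4 fell of 88 in LNCaP95 (12.5%), and 0 of 74 were called in 22Rv1 (1.01%; 9 at an unadjusted p under 0.05), with none by DESeq2 in LNCaP and 22Rv1 either.

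The run from ZNF737 to ZNF254 had more intron and downstream reads in LNCaP95 after knockdown, while its 3′ UTR reads overlapped between the arms. Without ZNF98, its 3′ UTRs had 62 ± 8.29 RPM in LNCaP95 controls and 66.2 ± 5.57 after knockdown, its introns 149 ± 5.66 and 267 ± 78.8, and its downstream regions 31.5 ± 1.04 and 78.9 ± 15.8. The control and knockdown libraries did not overlap in the intron and downstream sums. ZNF91 weighs on the intron sum. In LNCaP95 it held 5.98% of all intron reads of the chromosome 19 ZNF genes after knockdown and at most 3.44% in controls. The intron sum was not taken without ZNF91, so it does not show a rise across the run. In LNCaP the introns went from 354 ± 29 to 340 ± 35.4 and the downstream regions from 118 ± 12 to 155 ± 17.1, and in 22Rv1 from 382 ± 86.5 to 477 ± 29 and from 178 ± 7.37 to 247 ± 26.7, so that in these lines the arms were apart in the downstream sums and overlapped in the intron sums. None of these sums was tested, and the downstream share of all genes rose in each line too. Gene by gene on the table's own scale, 1 of 21 downstream regions of the run was higher and 2 lower in LNCaP95. Their median was 0.10, and 27.7% of all genes were called. The 2 were ZNF85 (9 control reads against 1 after knockdown) and ZNF100 (18 against 3). Of 20 intron sets of the run, 6 were higher and 0 lower (23.8% of all genes called). ZNF430 and ZNF726 stayed low, with 0 and at most 2 downstream reads in each LNCaP95 knockdown library.

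The partners through which KRAB zinc finger proteins act were measured in the same libraries. Of 18 genes for TRIM28, its methyltransferase SETDB1, HP1 proteins, NuRD subunits and the HUSH complex, 2 rose and 1 fell in the 3′ UTR table in LNCaP, 7 rose and 2 fell in LNCaP95 and none was called in 22Rv1, where 18.3%, 30.5% and 1.47% of all genes were called. TRIM28 rose in LNCaP95 (0.42, SE 0.144, edgeR adjusted p = 0.0343) and so did CBX5, an HP1 protein (1.29, SE 0.163, adjusted p = 1.5e-05). MORC2, a partner of HUSH, fell in LNCaP (-0.76, SE 0.151, edgeR adjusted p = 0.00187) and LNCaP95 (-0.45, SE 0.154, adjusted p = 0.0333). Of the 17 tested downstream in LNCaP, 5 rose and 4 fell, of 17 in LNCaP95 7 rose and 3 fell, and of 16 in 22Rv1 6 rose and 0 fell (14.7%, 27.7% and 9.99% of all genes). In the introns 0 rose and 3 fell of 16, 0 and 2 of 16, and none was called of 16 in 22Rv1 (14.3%, 23.8% and 4.37% of all genes).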

How the data were processed

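Total RNA of LNCaP, LNCaP95 and 22Rv1 cells was made into PAC-seq libraries. The authors trimmed poly(A) with DPAC, aligned to GRCh37 with HISAT2 2.1.0 and counted 3′ ends by strand with featureCounts (Subread 2.0.3), and they deposited raw read counts per gene in 4 region tables. In a 3′ end assay 1 read stands for 1 end, and internal A-rich stretches can also be primed.

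From the counts, the edgeR 4.0.16 quasi-likelihood F-test (R 4.3.3, TMM factors of each table, mean above 2 CPM, Benjamini-Hochberg threshold 0.05 over all genes of a table) compared 3 CTRL sh with 6 CPSF1 sh libraries within a line, the control libraries of the lines, region reads over 3′ UTR reads of a gene, and the knockdown changes between lines. SEs are the log2 fold change divided by the square root of F. The members and gene lists were chosen with earlier results of these data known. Genes were named by rule, as those called in one direction in at least 2 lines (up to 6 each way), the 2 smallest adjusted p per table and line, the 3 most different each way between controls, ratios called in 2 lines, and genes on in one line and off in another. In data simulated for the LNCaP95 10 kb comparison, 56.1% of 98 genes changed by 2 on the log2 scale, and 7.1% of 99 changed by 1, were recovered among 14653. The simulation gave every gene the same fixed dispersion and a mean pooled over all libraries. It placed changes only in genes well above the filter, so these shares need not hold for regions with few reads. Alternatives were DESeq2 1.42.0, library sizes summed over the tables, no filter, a replicate block, each shRNA alone and leaving out each library. Overlaps and sequences were computed in Python 3.11.15 from the GRCh37 reference. No library was a duplicate of another of its group, and libraries of different groups were not compared for this.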

Additional observations from a re-analysis of the deposited data

Results flagged for a closer look

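For the genes named by rule, 22 knockdown changes differed between 2 lines by a direct test of the difference (edgeR line-by-knockdown term over all 27 libraries, adjusted over all genes of the table). Other genes in the text are not among the 22. Of these, ZNF98 introns differed by -0.99 between 22Rv1 and LNCaP (edgeR adjusted p = 0.0182) and by -1.36 between 22Rv1 and LNCaP95 (2.8e-04). Downstream, ZNF85 differed by -5.27 between LNCaP95 and LNCaP (edgeR adjusted p = 4.0e-04), with few reads. ZNF787 differed downstream by -1.27 between 22Rv1 and LNCaP95 (edgeR adjusted p = 0.0231). Each value is a difference of 2 log2 fold changes. The causes of these differences were not tested.

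In the 3′ UTR table the change in LNCaP95 was above that in LNCaP for ZNF493 by 0.87 (edgeR adjusted p = 0.0238), ZNF780B by 1.83 (0.00739) and ZNF83 by 0.62 (0.033). The change in 22Rv1 was above that in LNCaP for ZNF493 by 0.95 (edgeR adjusted p = 0.0207), ZNF83 by 0.66 (0.0406) and ZNF415 by 2.11 (0.00971). Against LNCaP95, 22Rv1 was higher for ZNF880 by 1.71 (edgeR adjusted p = 4.5e-04), ZNF528 by 1.65 (0.0362) and ZNF433 by 1.34 (0.0188), and ZNF780B differed by -1.57 (0.0256).

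In the introns, ZNF91 differed by 1.08 between LNCaP95 and LNCaP (edgeR adjusted p = 0.0184) and ZNF812 by -2.15 between 22Rv1 and LNCaP (0.0277). Between 22Rv1 and LNCaP95 the differences were -1.59 for ZNF69 (edgeR adjusted p = 4.6e-04), -1.11 for ZNF345 (0.00516), -2.22 for ZNF233 (4.0e-04) and 1.19 for ZNF528 (0.0473).

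Downstream, ZNF541 differed by -2.56 between LNCaP95 and LNCaP (edgeR adjusted p = 4.0e-04) and by 3.02 between 22Rv1 and LNCaP95 (1.0e-05). ZNF812 differed by -2.64 between 22Rv1 and LNCaP (edgeR adjusted p = 7.4e-06) and by -1.29 between 22Rv1 and LNCaP95 (0.0494). ZNF430 differed by 4.08 (edgeR adjusted p = 0.0448) and ZNF610 by 4.0 (0.0129) between 22Rv1 and LNCaP95. ZNF430 had 3 downstream reads over the LNCaP95 controls and 0 after knockdown, so its fitted value is no bound. The ZNF610 change in 22Rv1 rests on 1 control read against 75 after knockdown (ratio 15, 95% counting interval 2.61 to 600), so its fitted difference depends on the prior count.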

How the results depend on the processing

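Counts of called chromosome 19 ZNF genes stayed within 1.5 times under DESeq2 in 18 of 18 comparisons. No named change that was called in the reported fit or in the alternative reversed its direction. Changes called in neither were not compared for direction. With library sizes summed over the tables the counts were 30 in LNCaP introns, 32 in the 22Rv1 10 kb table, 1, 8 and 1 for the intron ratio in LNCaP, LNCaP95 and 22Rv1, and 18, 54 and 21 for the 10 kb ratio. With CPSF1 sh1 alone they were 17 (3′ UTR, LNCaP), 10 (3′ UTR, LNCaP95), 16 (intron, LNCaP95), 1 (intron, 22Rv1), 1 (CDS, LNCaP), 1 (CDS, LNCaP95), 20 (10 kb, LNCaP95) and 4 (10 kb, 22Rv1), and with CPSF1 sh2 alone 3 (3′ UTR, LNCaP) and 1 (CDS, LNCaP). With no filter the 22Rv1 intron ratio had 1 call. Counting only genes whose 10 kb region overlaps no other left 31 of the 51 LNCaP95 calls. Of the named changes refitted with a single shRNA, 18 of 69 (sh1) and 7 of 71 (sh2) lost a call, and with sh2 2 gained one. The 69 and 71 include changes that were not called in the reported fit, so these are not shares of calls.

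Leaving out 1 library, the 3′ UTR calls ranged from 2 to 17 in LNCaP (2 without control replicate 1, 17 without CPSF1 sh2 replicate 2), in LNCaP95 from 19 to 32, and from 0 to 1 in 22Rv1. The intron calls ranged from 10 to 21 (10 without LNCaP control replicate 3), 21 to 31 and 2 to 6, the CDS calls from 0 to 1, 3 to 8 and 0 to 0, and the 10 kb calls from 23 to 39, 37 to 53 and 8 to 18 (8 without 22Rv1 control replicate 3, 9 without replicate 2). Between controls the ranges were 38 to 44 and 45 to 70 (3′ UTR), 33 to 40 and 37 to 52 (intron), and 14 to 21 and 24 to 33 (10 kb), with 33 and 14 without LNCaP control replicate 3. The intron ratio ranged from 0 to 4, 8 to 15 and 0 to 1, and the 10 kb ratio from 4 to 11 (4 without LNCaP control replicate 1), 20 to 26 and 0 to 6 (0 without 22Rv1 control replicate 3).

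Pairs of samples with the same replicate number correlated over 0.1 in 0 to 5 of 9 pairs by table and line, never in all, so they were taken to share only a number. The 5 were 3′ UTR pairs of controls between lines (median r 0.19, against -0.13 for other numbers), where the block gave 56 and 64 calls against 54 and 62. With the replicate block the 10 kb counts were 31, 50 and 16, against 32, 51 and 18, and the block lost the control calls of ZNF99 (adjusted p = 0.13), ZNF57 (0.054) and ZNF433 (0.0911). Low 10 kb counts limit what could be called.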
